A study of Homo sapiens with 9 samples.

Results

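The genes described here are the nuclear-encoded subunits of the mitochondrial respiratory chain and ATP synthase. They were taken as the protein-coding genes whose symbol starts with NDUFA, NDUFB, NDUFC, NDUFS or NDUFV followed by a digit, is SDHA, SDHB, SDHC or SDHD, starts with UQCR, starts with COX and a digit from 4 to 8, or starts with ATP5. This rule found 89 of the 57905 genes in the count table and used no measured value. By the complex that holds their products, 37 belonged to complex I, 4 to complex II, 9 to complex III, 19 to complex IV and 20 to complex V. NDUFA4 was placed in complex IV, where its product is found, and its paralogue NDUFA4L2 was placed with it. NDUFC2-KCTD14 and ATP5MF-PTCD1 are read-through genes that join a subunit gene to its neighbour.

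The study measured poly(A) RNA in KYSE180, a cell line from a human esophageal squamous cell carcinoma, after 6 Gy of ionizing radiation. The control cells carried shluc, a short hairpin RNA against luciferase, and the other cells carried 1 of 2 hairpins against EZH2, shEZH2#1 or shEZH2#3. EZH2 is the enzyme of Polycomb repressive complex 2 that methylates histone H3 at lysine 27, and KDM6A, in which the title calls the line deficient, removes that methylation. Each group had 3 libraries, and all 9 came from irradiated cells of the same line, so every difference below is between hairpins in irradiated cells and no unirradiated cells were analysed here. The titles and the design text call the hairpin lines knockdowns while a genotype label calls them knockouts, and the groups follow the titles. Nothing in the labels says that the replicates were separate cultures or how many clones a line holds, so each p-value rests on library-to-library spread that may be technical.

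Electrons enter the chain from NADH at complex I or from succinate at complex II, pass by ubiquinone to complex III and by cytochrome c to complex IV, where oxygen is reduced. Complexes I, III and IV pump protons across the inner mitochondrial membrane, and complex V, the ATP synthase, uses the returning protons to make ATP. Complexes I, III, IV and V each combine subunits from mitochondrial DNA with subunits from nuclear genes, whereas complex II is wholly nuclear-encoded and also works in the citric acid cycle.

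Library totals ran from 14958011 to 21152006 estimated counts, and the 89 genes held 1.13 to 1.56% of them. EZH2 stood at 18.4, 20.1 and 19.5 counts-per-million (CPM) in shluc, at 11.6, 11.4 and 7.28 CPM with shEZH2#1, and at 9.67, 11.04 and 9.12 CPM with shEZH2#3, so each hairpin library lay below each control library (log2 fold changes −0.94 ± 0.18 and −0.96 ± 0.18, SE). Of the 14 epithelial markers listed for the cell line, KRT8, KRT18, KRT17 and SFN were abundant, but the squamous markers KRT5, KRT14, KRT6A, TP63, SOX2, PKP1 and DSG3 were at or near 0 in every library. The summed level of 5 leukocyte markers was 18.5 to 22.2 CPM in shluc, 16.1 to 20.2 CPM with shEZH2#1 and 25.0 to 30.7 CPM with shEZH2#3, with PTPRC and CD3E at 0. The summed fibroblast markers lay at 59.5 to 68.3, 53.9 to 62.4 and 79.5 to 118.2 CPM in the same order, with COL1A2 at 0. The 3 endothelial markers found summed to 13.8 to 19.8 CPM in shluc, 7.97 to 8.29 CPM with shEZH2#1 and 28.4 to 32.7 CPM with shEZH2#3, with KDR at 0. The part of other cell types in the results below was not tested.

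CPM are given on the scale of the trimmed mean of M-values (TMM), which scales the libraries to each other. In all, 83 of the 89 subunit genes had enough counts to be tested. The other 6 were COX4I2, COX6A2, COX6B2, COX7A1, COX8C and ATP5MGL, of which 5 are alternative subunits of complex IV made mainly in other tissues. COX6B2, the testis form, reached 0.744 CPM, COX8C had no counts in any library, and the other 4 had counts in 1 library each. With no counts, a level of up to 0.201 CPM remains possible in the shallowest library, where that limit stands for 3 counts and covers counting error only. Expressed relative to transcript length (transcripts-per-million, TPM), the most abundant subunit transcripts were ATP5F1B, the catalytic beta subunit of ATP synthase, at 2179 TPM, COX4I1, a subunit of complex IV, at 2167 TPM, and UQCRC1, a core protein of complex III, at 1185 TPM, as means over the 9 libraries. The tested transcripts were short, with a median length of 750 bases against 2422 for all genes tested.

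With shEZH2#1, 8 subunit genes rose and 2 fell at a Benjamini-Hochberg adjusted p below 0.05 in edgeR's quasi-likelihood test, which is the meaning of a call throughout. Over all 13252 genes tested, 11.2% rose and 7.89% fell, so about as many subunit genes rose as the background gives. Their median log2 fold change was 0.08 over the 83 subunit genes and −0.07 over all genes. With shEZH2#3, 31 subunit genes rose and 6 fell, against a background of 24.4% higher and 19.8% lower. Their median log2 fold change was 0.43, and that of all genes was −0.01. For the mean of both hairpins against shluc, 16 rose and 7 fell, with a background of 19.6% and 16.6% and a median of 0.28. These comparisons share the 3 shluc libraries, so their values are given side by side and not as support for each other.

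Complex I, with 37 of the 83 tested genes, held 6 of the 8 genes that rose with shEZH2#1 and 17 of the 31 that rose with shEZH2#3. The shares of all genes to set beside the counts are 11.2% higher and 7.89% lower with shEZH2#1, and 24.4% and 19.8% with shEZH2#3. With shEZH2#1, 6 of its 37 genes rose and 1 fell (median log2 fold change 0.11), and with shEZH2#3, 17 rose and 2 fell (median 0.47). In complex II none of the 4 genes was called with shEZH2#1, and with shEZH2#3 1 rose and 1 fell. In complex III, 1 of 9 rose with shEZH2#1, and with shEZH2#3 2 rose and 1 fell (medians 0.19 and 0.58). In complex IV none of 14 tested genes was called with shEZH2#1 and 5 rose with shEZH2#3 (medians 0.19 and 0.49). In complex V, 1 of 19 tested genes rose and 1 fell with shEZH2#1, against 6 higher and 2 lower with shEZH2#3 (medians −0.06 and 0.38). Without shEZH2#3 replicate 1 the shEZH2#3 counts were 6 higher and 2 lower in complex I (median 0.15), 1 and 1 in complex II, 1 and 0 in complex III (median −0.05), 2 and 0 in complex IV (median 0.18), and 3 and 3 in complex V (median 0.09). Complex I then held 6 of the 13 genes that rose, and 5 of 13 after the correction for GC content and length given below. Without that library 22.2% of all genes tested rose and 17.3% fell. No test compared 1 complex with another.

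**Figure D1:**
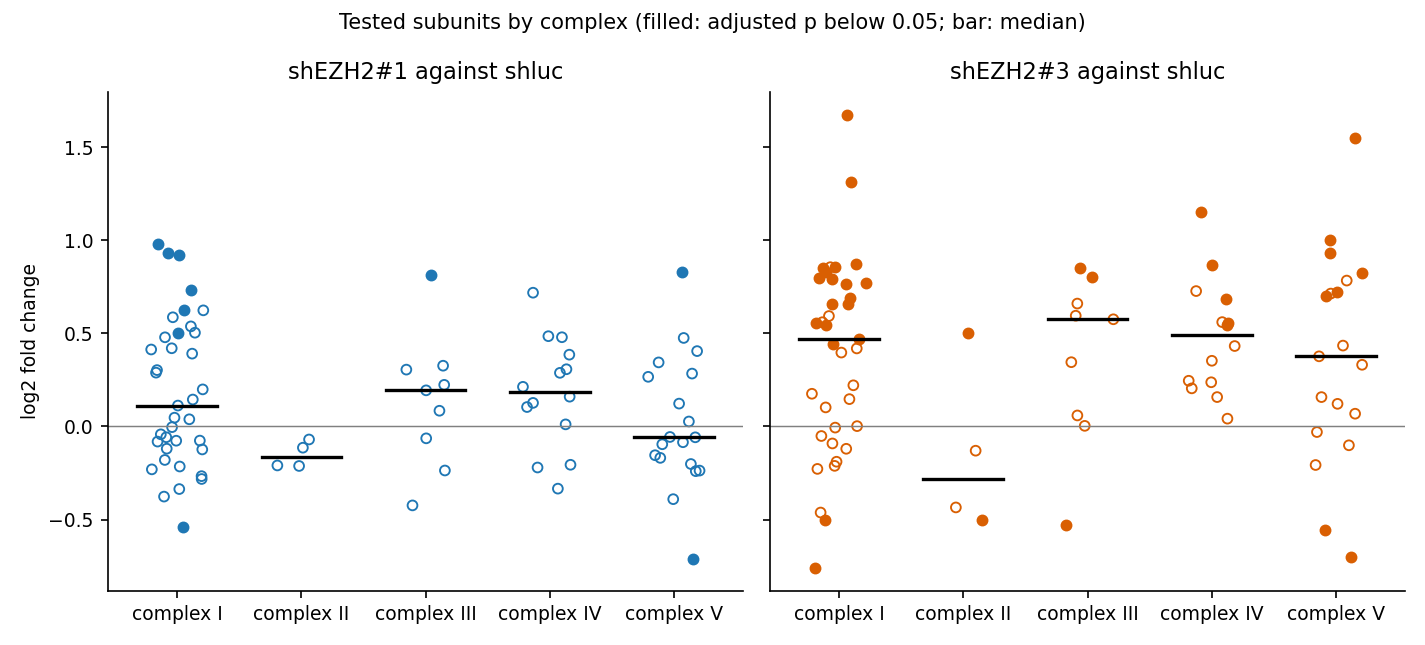
Log2 fold change of each tested subunit gene against shluc, by complex, for shEZH2#1 and shEZH2#3. Points stand for single genes (filled where the adjusted p was below 0.05), and the bars at the medians run from −0.16 in complex II to 0.19 in complexes III and IV with shEZH2#1, and from −0.28 in complex II to 0.58 in complex III with shEZH2#3.

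A single library of the shEZH2#3 group stood above the others. In shEZH2#3 replicate 1 the subunit transcripts of at most 750 bases lay a median 0.83 log2 units above their mean over the 9 libraries, and the longer ones 0.22 above. In the other shEZH2#3 replicates these medians lay between −0.09 and 0.04. The lowest library was shluc replicate 2, at −0.64 for the short and −0.36 for the long transcripts. Without shEZH2#3 replicate 1, 13 subunit genes rose and 6 fell with shEZH2#3 (background 22.2% and 17.3%), with a median of 0.10. All 13 of these were among the 31, and 13 of 83 is a smaller share than that of all genes tested. Without shluc replicate 2, 14 rose and 6 fell (background 18.4% and 13.2%, median 0.29). Leaving out shluc replicate 3 instead gave 21 calls in place of 10 with shEZH2#1, and leaving out shluc replicate 1 gave 6 with shEZH2#1 and 24 in place of 37 with shEZH2#3. The part of transcript length in these differences was not tested apart from the correction given next.

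**Figure D2:**
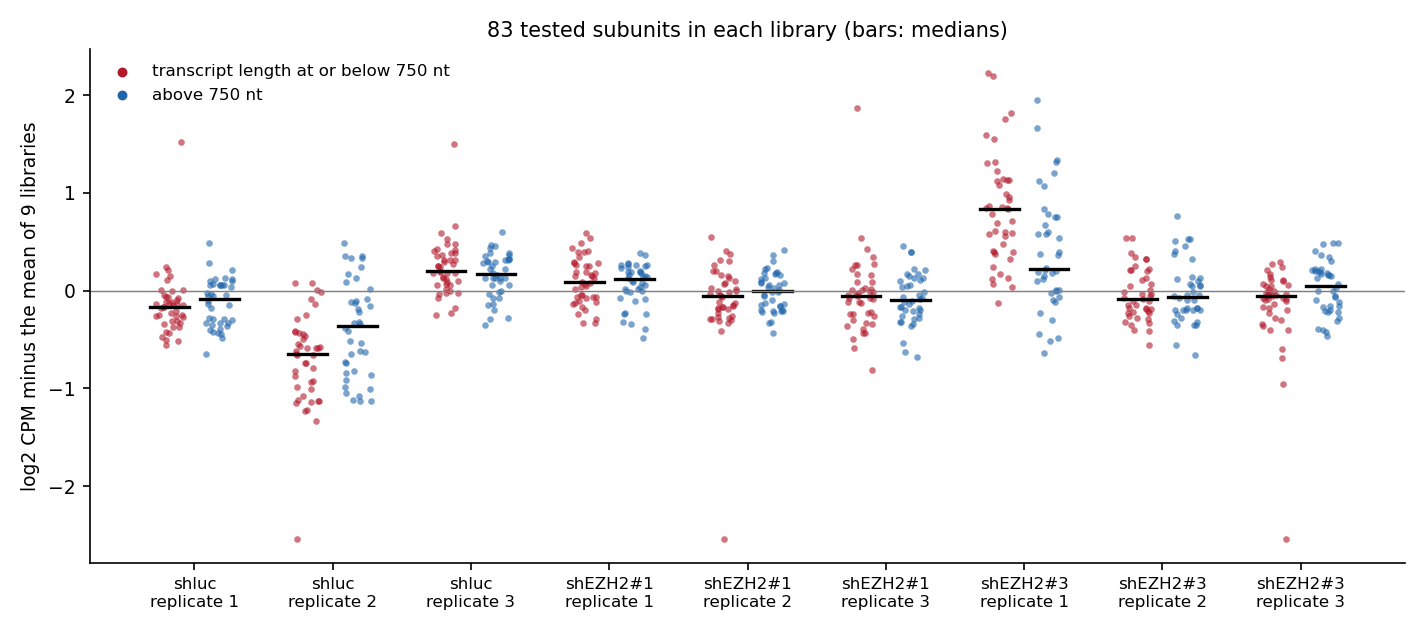
Log2 level of each tested subunit gene in each library, as its deviation from the gene's mean over the 9 libraries. Points are genes, split at a transcript length of 750 bases, and the bars at the medians put shEZH2#3 replicate 1 highest (0.83 and 0.22 for short and long) and shluc replicate 2 lowest (−0.64 and −0.36).

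The calls also ran with the base composition of the transcripts. The subunits' median GC content was 48.9%, and 41 tested genes lay above it. These 41 held 8 of the 8 genes that rose with shEZH2#1 and 28 of the 31 that rose with shEZH2#3, and the genes that fell, 2 and 6, were at or below the median. Across the 83 genes, which share the same libraries, Spearman's rho between log2 fold change and GC content was 0.56 with shEZH2#1 and 0.57 with shEZH2#3. In the single libraries, the rho over all genes between GC content and the deviation from the mean level ran from −0.70 in shluc replicate 2 to 0.65 in shEZH2#3 replicate 2. A correction that subtracts a smooth curve of GC content and length from each library was fitted beside the main test. Under it 8 subunit genes rose and 4 fell with shEZH2#1 (background 8.49% and 9.57%, median −0.01), and 13 rose and 4 fell with shEZH2#3 (background 12.8% and 11.4%, median 0.25). For the mean of both hairpins, 6 rose and 4 fell (background 9.32% and 9.21%). The corrected sets held 4 of the 8 and 9 of the 31 genes that had risen without it. The curve removes any difference that runs with GC content, whatever its source, and corrected values are given beside the uncorrected ones for most of the genes below.

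**Figure D3:**
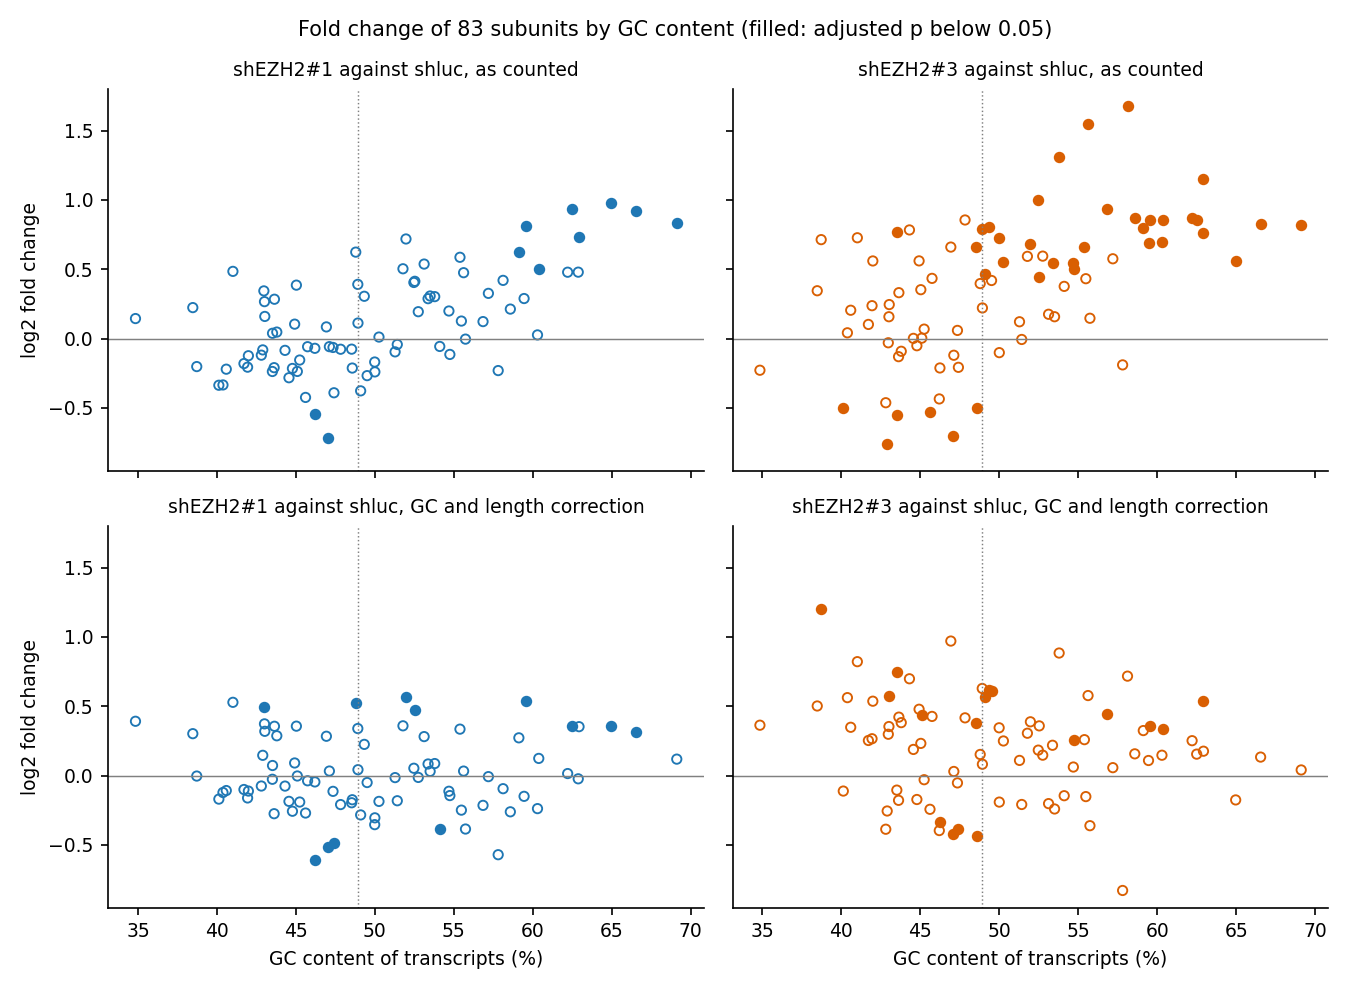
Log2 fold change of each tested subunit gene against the GC content of its transcript, in percent, for each hairpin, before and after the correction for GC content and length. Filled points had an adjusted p below 0.05 and the dotted line marks the median GC content: before the correction the points climb with GC content (rho 0.56 and 0.57), and after it rho is 0.00 with shEZH2#1 and −0.17 with shEZH2#3.

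Scaling set the level that all these values refer to. On library totals with no scaling factor, the median of all genes moved to −0.35 with shEZH2#1 and −0.47 with shEZH2#3, and the subunit genes' medians to −0.17 and −0.01. Relative to all genes the subunit median was then 0.18 and 0.46 higher, against 0.16 and 0.45 in the main test. On that scale 5 subunit genes were higher and 13 lower with shEZH2#1, 7 higher and 20 lower with shEZH2#3, 7 and 21 in the mean of both, and 4 and 3 between the hairpins. Upper quartile scaling gave 17 higher and 7 lower with shEZH2#3, so directions are stated below relative to the TMM scale.

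Complex I oxidises NADH in its N module, passes electrons to ubiquinone in its Q module and pumps protons in its membrane arm. Of the 7 tested Q module genes 2 rose with shEZH2#1 and 3 with shEZH2#3 (medians 0.41 and 0.18). NDUFS7, which carries the last iron-sulfur cluster before ubiquinone, stood at 135.2, 91.4 and 155.9 CPM in shluc, at 223.5, 243.0 and 258.9 CPM with shEZH2#1, and at 219.1, 249.8 and 210.4 CPM with shEZH2#3. Each of its 6 hairpin libraries lay above each control library. NDUFS7 rose by log2 0.92 ± 0.18 (SE, edgeR adjusted p = 0.00145) with shEZH2#1 and 0.83 ± 0.18 (adjusted p = 0.0011) with shEZH2#3. Corrected for GC content and length it was 0.31 (adjusted p = 0.0104) and 0.13 (adjusted p = 0.225). NDUFS7 lies on GRCh38 chromosome 19, from 1383527 to 1395589 on the forward strand, and 49.2% of its exonic bases also lie in a gene annotated on the opposite strand.

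NDUFS8, which holds a further pair of iron-sulfur clusters of the Q module, had 255.5, 165.9 and 305.0 CPM in shluc, 430.0, 468.5 and 486.8 CPM with shEZH2#1, and 467.6, 472.7 and 375.3 CPM with shEZH2#3. Here too the control and hairpin libraries did not overlap. The log2 fold changes were 0.93 ± 0.19 (edgeR adjusted p = 0.00224) and 0.86 ± 0.19 (adjusted p = 0.00147), and 0.35 and 0.15 after correction, of which only the shEZH2#1 value kept its call.

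In the N module, 1 of 9 genes rose with shEZH2#1, against 2 higher and 1 lower with shEZH2#3. NDUFV1, the flavoprotein that takes electrons from NADH, rose from 383.5, 273.6 and 427.5 CPM in shluc to 464.5, 516.4 and 552.4 CPM with shEZH2#1 and 712.3, 672.9 and 572.6 CPM with shEZH2#3. Its log2 fold change was 0.50 ± 0.17 (edgeR adjusted p = 0.0471) and 0.85 ± 0.17 (adjusted p = 0.000758), and 0.12 and 0.33 after correction, when only the shEZH2#3 call was kept. Without shluc replicate 2 the shEZH2#1 value was 0.32 (edgeR adjusted p = 0.178). NDUFS1, the large iron-sulfur subunit that receives those electrons, went the other way with shEZH2#3. It had 41.0, 48.1 and 49.4 CPM in shluc, 49.1, 43.1 and 38.6 CPM with shEZH2#1, and 24.1, 23.8 and 33.7 CPM with shEZH2#3, so the shEZH2#3 libraries lay below all others. The log2 fold change of NDUFS1 was −0.08 with shEZH2#1 and −0.76 ± 0.17 (edgeR adjusted p = 0.0014) with shEZH2#3, and −0.26 (adjusted p = 0.152) after correction.

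Of the 20 membrane-arm genes, 3 rose and 1 fell with shEZH2#1 (median 0.16), while 12 rose and 1 fell with shEZH2#3 (median 0.61). Without shEZH2#3 replicate 1, 3 rose and 1 fell with shEZH2#3 (median 0.17), and the GC and length correction gave the same counts with a median of 0.25. NDUFB7, an accessory subunit on the intermembrane-space side, had 236.9, 136.9 and 311.8 CPM in shluc, 421.4, 466.2 and 464.1 CPM with shEZH2#1, and 359.8, 349.7 and 299.5 CPM with shEZH2#3. The shEZH2#1 libraries lay above the control, while 1 shEZH2#3 library fell within its range. The log2 fold change was 0.98 ± 0.21 (edgeR adjusted p = 0.00354) with shEZH2#1 and 0.56 ± 0.21 (adjusted p = 0.0375) with shEZH2#3. After correction it was 0.36 (called) and −0.18 (not called), so the direction with shEZH2#3 turned. That call was also lost without shluc replicate 2 (0.28, edgeR adjusted p = 0.165), as it was when shEZH2#3 replicate 1 was left out (0.51, adjusted p = 0.0612).

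NDUFA11, an accessory subunit that helps hold the membrane arm together, had 104.9, 63.5 and 135.6 CPM in shluc, 159.0, 163.5 and 182.9 CPM with shEZH2#1, and 239.3, 148.5 and 128.4 CPM with shEZH2#3. NDUFB11, a further membrane-arm subunit, had 361.3, 244.6 and 457.3 CPM in shluc, 534.4, 548.7 and 559.4 CPM with shEZH2#1, and 814.3, 528.8 and 506.0 CPM with shEZH2#3. Both rose with both hairpins in the main test, at log2 fold changes of 0.73 and 0.76 for NDUFA11 and 0.63 and 0.80 for NDUFB11, and neither was called after correction. In NDUFA11 1 shEZH2#3 library lay inside the control range, and without shEZH2#3 replicate 1 its shEZH2#3 value was 0.45 (edgeR adjusted p = 0.0816). Without shluc replicate 2 NDUFA11 had 0.48 and 0.51 and was called with neither hairpin, and NDUFB11 lost its shEZH2#1 call (0.41, edgeR adjusted p = 0.204). NDUFB8, a subunit often used as a blot marker of assembled complex I, was 141.9 CPM in shEZH2#3 replicate 1 and between 72.4 and 80.6 CPM in the other 5 hairpin libraries, against 70.7, 52.2 and 79.2 CPM in shluc. Its shEZH2#3 value was 0.55 (edgeR adjusted p = 0.039) with that library, 0.18 without it and 0.06 after correction, and the call was lost without shluc replicate 2 as well (0.39). The short subunit NDUFA3 showed the same pattern more strongly, with 69.8, 16.3 and 13.8 CPM with shEZH2#3 against 11.7, 6.38 and 13.4 CPM in shluc, and its log2 fold change went from 1.68 ± 0.42 (edgeR adjusted p = 0.00355) to 0.53 (adjusted p = 0.0645), with 0.72 (adjusted p = 0.0903) after correction. NDUFC2, chosen after its values were seen as the complex I gene that fell with shEZH2#1, had 86.7, 75.0 and 107.8 CPM in shluc, 63.5, 62.3 and 59.5 CPM with shEZH2#1, and 93.6, 67.8 and 71.2 CPM with shEZH2#3. With shEZH2#1 it fell by log2 0.54 ± 0.16 (edgeR adjusted p = 0.0257), and the corrected value was −0.61, also called. With shEZH2#3 it had −0.21, not called, and was called lower after correction (−0.34, edgeR adjusted p = 0.0117).

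Complex II, succinate dehydrogenase, joins a flavoprotein (SDHA) and an iron-sulfur protein (SDHB) to a pair of membrane anchors (SDHC and SDHD). With shEZH2#3, SDHA rose and SDHB fell. SDHA had 523.3, 456.9 and 484.7 CPM in shluc, 426.0, 462.6 and 465.1 CPM with shEZH2#1, and 568.9, 758.1 and 745.9 CPM with shEZH2#3, where all 3 libraries lay above the rest. For SDHA the log2 fold change was −0.11 with shEZH2#1 and 0.50 ± 0.15 (edgeR adjusted p = 0.0137) with shEZH2#3, and in the latter it was called after correction (0.26, adjusted p = 0.0498) and without shEZH2#3 replicate 1 (0.62). SDHB had 46.0, 50.8 and 56.4 CPM in shluc, 49.1, 45.7 and 37.4 CPM with shEZH2#1, and 31.8, 38.0 and 38.6 CPM with shEZH2#3. The shEZH2#3 libraries lay below the control. Its log2 fold change was −0.21 with shEZH2#1 and −0.50 ± 0.15 (edgeR adjusted p = 0.0137) with shEZH2#3, −0.44 (adjusted p = 0.0166) after correction and −0.41 (adjusted p = 0.0558) without shEZH2#3 replicate 1. Neither anchor passed the test in the main test: SDHC had −0.21 and −0.13, and SDHD −0.07 and −0.43, with shEZH2#1 and shEZH2#3. Without shEZH2#3 replicate 1 SDHD was called with shEZH2#3 (−0.59, edgeR adjusted p = 0.0232). The 4 pseudogenes named for SDHA held 1.14% as many counts as SDHA itself.

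In complex III, UQCRC1 was the gene called with each hairpin under both the main test and the correction. This core protein, a relative of mitochondrial processing peptidases, had 958.5, 643.6 and 1058.2 CPM in shluc, 1380.7, 1591.4 and 1701.3 CPM with shEZH2#1, and 1679.4, 1677.2 and 1449.2 CPM with shEZH2#3. Each hairpin library lay above each control library. The log2 fold change was 0.81 ± 0.18 (edgeR adjusted p = 0.00405) with shEZH2#1 and 0.85 ± 0.18 (adjusted p = 0.00104) with shEZH2#3, and 0.54 (adjusted p = 0.00304) and 0.36 (adjusted p = 0.0245) after correction. Without shEZH2#3 replicate 1 the shEZH2#3 value was 0.82 (edgeR adjusted p = 0.0015). With that library left out and the correction made, it was 0.29 (adjusted p = 0.0645) and not called. UQCRC1 lies on GRCh38 chromosome 3, from 48599002 to 48610976 on the reverse strand.

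Its partner UQCRC2, the other core protein, had 63.5, 69.3 and 74.1 CPM in shluc, 60.2, 47.3 and 46.6 CPM with shEZH2#1, and 39.3, 48.0 and 55.8 CPM with shEZH2#3. All 6 hairpin libraries lay below the control libraries. It fell with shEZH2#3 (−0.53 ± 0.16, edgeR adjusted p = 0.0122) and had −0.42 (adjusted p = 0.0686) with shEZH2#1. It was called with neither hairpin after correction (−0.27 and −0.24). When shEZH2#3 replicate 1 was left out the calls changed places: the shEZH2#3 value was −0.41 (edgeR adjusted p = 0.0581) and the shEZH2#1 value −0.42 (adjusted p = 0.0443). The iron-sulfur protein UQCRFS1 had log2 fold changes of −0.24 and 0.00, and 0.43 with a call (edgeR adjusted p = 0.0482) for shEZH2#3 after correction. The hinge protein gene UQCRH had −0.06 and 0.06, and its near-identical copy UQCRHL 0.08 and 0.66, none of them called, and without shEZH2#3 replicate 1 the UQCRHL value with shEZH2#3 was −0.07. Reads of that pair may have been split between them in counting.

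In complex IV, 3 named subunits next to the mitochondrially encoded core were compared. COX4I1, known for its part in the allosteric control of the enzyme by ATP, had 783.1, 577.7 and 1049.7 CPM in shluc, 1007.4, 949.3 and 986.6 CPM with shEZH2#1, and 1519.1, 893.9 and 1106.0 CPM with shEZH2#3. The groups overlapped, and its shEZH2#3 value of 0.55 (edgeR adjusted p = 0.0379) was 0.32 without replicate 1. It was 0.22 after correction and 0.35 without shluc replicate 2, called in neither. COX5A had 131.4, 104.8 and 140.5 CPM in shluc, 129.7, 128.9 and 121.0 CPM with shEZH2#1, and 214.8, 164.9 and 174.0 CPM with shEZH2#3, which lay above the rest. For COX5A the log2 fold change was 0.01 with shEZH2#1 and 0.56 ± 0.16 (edgeR adjusted p = 0.00785) with shEZH2#3, and 0.25 (adjusted p = 0.0756) after correction. The COX5A value with shEZH2#3 was called without shEZH2#3 replicate 1 (0.43, edgeR adjusted p = 0.0393) and without shluc replicate 2 (0.44, adjusted p = 0.0313). With shEZH2#3 replicate 1 left out and the correction made, it was 0.34 (adjusted p = 0.0146). COX5B, a zinc-binding subunit, had 166.0, 108.1 and 260.6 CPM in shluc, 331.8, 272.3 and 275.6 CPM with shEZH2#1 and 421.6, 205.1 and 233.0 CPM with shEZH2#3. The shEZH2#1 libraries lay above the control and the shEZH2#3 libraries overlapped it. The log2 fold changes of COX5B were 0.72 (edgeR adjusted p = 0.0616) and 0.69 (adjusted p = 0.0408), and the latter was 0.30 without shEZH2#3 replicate 1 and 0.42 without shluc replicate 2, neither called. The correction moved the COX5B call to shEZH2#1 (0.56, edgeR adjusted p = 0.0256), with 0.39 (adjusted p = 0.0971) for shEZH2#3, and without shEZH2#3 replicate 1 the shEZH2#1 value was also called (0.72, adjusted p = 0.0115).

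The isoform pairs of complex IV gave an uneven picture. COX4I1, COX6A1, COX6B1, COX7A2 and COX7A2L were expressed, while COX4I2, COX6A2, COX6B2 and COX7A1 stayed below the filter. COX6A1, COX6B1, COX7A2 and COX7A2L had log2 fold changes between 0.13 and 0.43 with either hairpin, none called in the main test. After correction COX7A2L was called with shEZH2#3 (0.57, edgeR adjusted p = 0.011), while COX6A1 (0.03 and −0.24) and COX6B1 (−0.25 and −0.15) had negative values among theirs and were not called, nor was COX7A2 (0.36 and 0.23). NDUFA4, a small subunit of the complex, had 69.0, 50.3 and 101.6 CPM in shluc, 67.8, 53.5 and 53.8 CPM with shEZH2#1 and 101.9, 58.6 and 66.8 CPM with shEZH2#3, overlapping throughout. Its log2 fold changes were −0.33 and 0.04, and −0.12 and 0.56 after correction, none called. Its paralogue NDUFA4L2, known as a hypoxia-inducible gene, had 8.34, 7.22 and 11.9 CPM in shluc, 14.8, 11.4 and 11.98 CPM with shEZH2#1 and 19.7, 22.5 and 18.6 CPM with shEZH2#3. Its shEZH2#3 libraries lay above all others, with a log2 fold change of 1.15 ± 0.19 (edgeR adjusted p = 0.000148), 0.54 (adjusted p = 0.0154) after correction and 1.17 without shEZH2#3 replicate 1. With shEZH2#1 it was 0.48 (adjusted p = 0.0866).

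**Figure D4:**
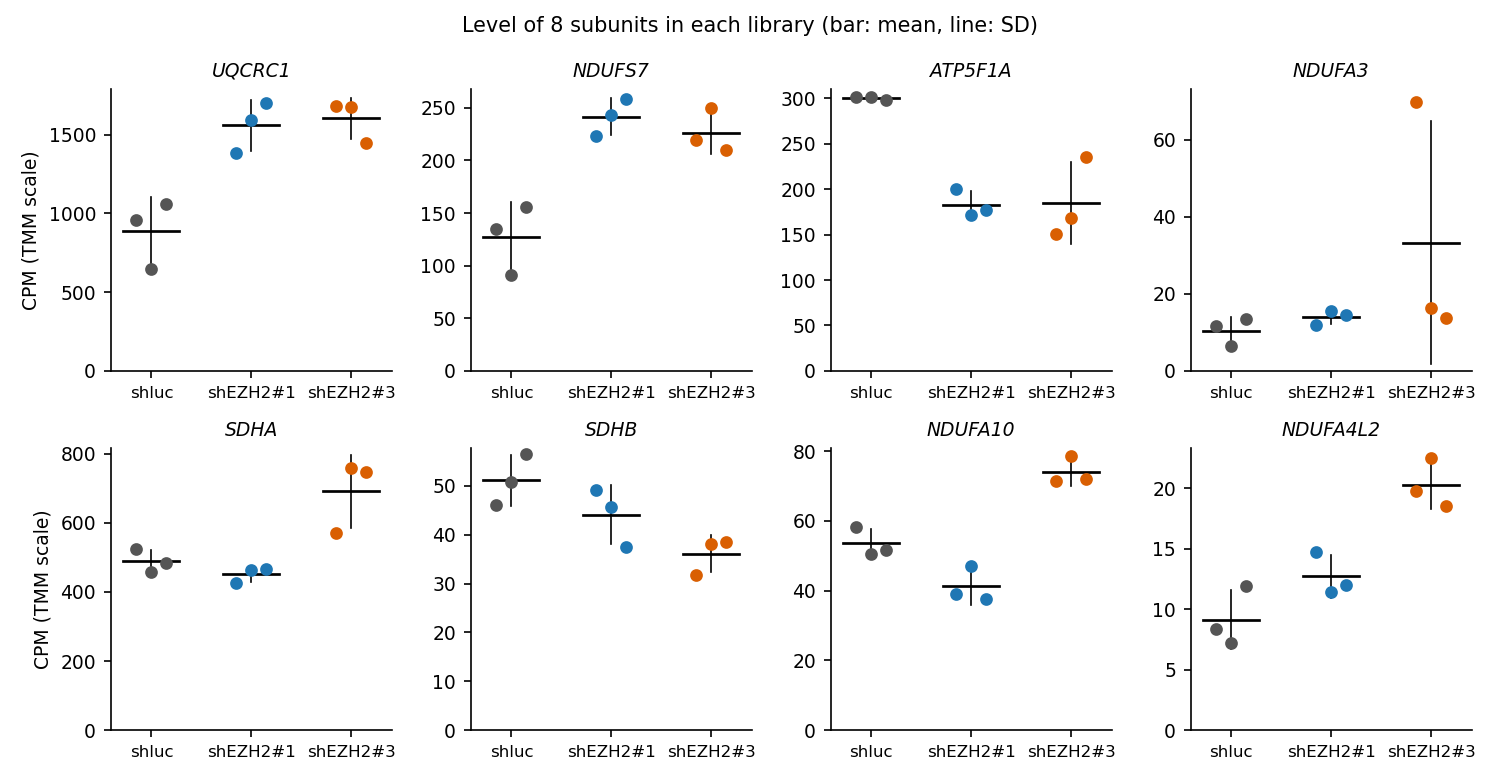
CPM in each of the 9 libraries for UQCRC1, NDUFS7, ATP5F1A, NDUFA3, SDHA, SDHB, NDUFA10 and NDUFA4L2 by hairpin, on linear axes from 0, with bars for group means and lines for the SD. UQCRC1 and ATP5F1A separate both hairpins from shluc in opposite directions, at 644 to 1058 against 1381 to 1701 CPM and at 298 to 302 against 151 to 236 CPM.

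The catalytic head of ATP synthase showed unequal values among its subunits. ATP5F1A, the alpha subunit, had 301.5, 300.9 and 297.8 CPM in shluc, 200.3, 171.3 and 176.9 CPM with shEZH2#1, and 150.5, 168.2 and 235.7 CPM with shEZH2#3, each hairpin library below each control. It fell by 0.71 ± 0.17 (log2, edgeR adjusted p = 0.00554) and by 0.70 ± 0.17 (adjusted p = 0.00256). The correction left −0.52 and −0.42, both called. Without shEZH2#3 replicate 1 the ATP5F1A value with shEZH2#3 was −0.57 (edgeR adjusted p = 0.0122). With that library left out and the correction made, it was −0.30 (adjusted p = 0.0623) and not called. ATP5F1B, the beta subunit with which it alternates in the head, had 2417.7, 1768.4 and 2481.0 CPM in shluc, 2197.6, 1927.9 and 2114.5 CPM with shEZH2#1, and 2084.0, 2319.2 and 2849.9 CPM with shEZH2#3. Its groups overlapped, with log2 fold changes of −0.10 and 0.12. ATP5F1C, the central-stalk gamma subunit, had 0.34 and −0.03, neither called, but after correction it was called higher with shEZH2#1 (0.50, edgeR adjusted p = 0.0208) and had 0.30 with shEZH2#3. ATP5F1D, the delta subunit of that stalk, had 107.4, 74.3 and 127.6 CPM in shluc, 163.0, 197.1 and 189.8 CPM with shEZH2#1, and 176.3, 216.4 and 154.1 CPM with shEZH2#3. It rose by log2 0.83 ± 0.18 (edgeR adjusted p = 0.00427) and 0.82 ± 0.18 (adjusted p = 0.00175), but it had the highest GC content of the tested subunits at 69.1%, and the corrected values were 0.12 and 0.04, neither called.

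The c ring, which turns as protons pass, is encoded by 3 genes for the same mature protein. ATP5MC2 had 320.3, 234.9 and 387.9 CPM in shluc, 331.9, 352.9 and 342.0 CPM with shEZH2#1, and 852.4, 491.7 and 456.5 CPM with shEZH2#3, where all 3 libraries lay above the rest. It had 0.12 (log2) with shEZH2#1 and 0.93 ± 0.21 (edgeR adjusted p = 0.00201) with shEZH2#3, 0.44 (adjusted p = 0.0169) after correction and 0.59 (adjusted p = 0.0118) without replicate 1. ATP5MC1 had −0.06 and 0.38, and ATP5MC3 0.27 and 0.16, none called. After correction ATP5MC1 was called lower with shEZH2#1 (−0.38, edgeR adjusted p = 0.00302) and had −0.15 with shEZH2#3, where its direction turned, and ATP5MC3 had 0.37 and 0.35, not called. The ATP5MC1 value with shEZH2#3 was 0.11 when its replicate 1 was left out. ATP5IF1, the inhibitor that binds the enzyme when the proton gradient falls, had 28.2, 22.6 and 32.3 CPM in shluc, 24.7, 27.6 and 21.4 CPM with shEZH2#1, and 75.2, 35.0 and 26.8 CPM with shEZH2#3. Its call with shEZH2#3 (0.72, edgeR adjusted p = 0.0302) was lost without that first library (0.16), without shluc replicate 2 (0.60) and after correction (0.34). ATP5ME, a membrane subunit chosen after its values were seen, had 52.1 CPM there and 4.31 to 12.2 CPM in the other 8 libraries, so its 1.55 (edgeR adjusted p = 0.0126) became 0.17. It was 1.25 without shluc replicate 2 and 0.58 after correction, not called in these either. Of the 4 peripheral-stalk genes none was called with shEZH2#1 (median −0.24), and 1 fell with shEZH2#3 (median −0.15). That gene was ATP5PB (−0.55, edgeR adjusted p = 0.00832), which was not called after correction (−0.10). ATP5PF had −0.39 and −0.21, not called, and was called lower with both hairpins after correction (−0.49, edgeR adjusted p = 0.0102, and −0.38, adjusted p = 0.0283), and with shEZH2#3 when its replicate 1 was left out (−0.45). These stalk genes were chosen after their values were seen.

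The direct comparison of the hairpins gave 1 subunit gene higher and 11 lower with shEZH2#1 than with shEZH2#3 at an adjusted p below 0.05, against a background of 9.46% higher and 15.5% lower. The median log2 difference was −0.22. Under the GC and length correction 3 were higher and 19 lower (background 12.9% and 15.2%). Without shEZH2#3 replicate 1, 1 was higher and 4 lower (background 8.29% and 14.7%), namely NDUFS1 higher and NDUFA10, SDHA, NDUFA4L2 and ATP5MF-PTCD1 lower. NDUFA10, a membrane-arm accessory subunit, had 58.3, 50.6 and 51.7 CPM in shluc, 38.9, 47.2 and 37.6 CPM with shEZH2#1, and 71.5, 78.7 and 72.1 CPM with shEZH2#3. The shEZH2#1 libraries lay below and the shEZH2#3 libraries above the control, with a difference between hairpins of −0.85 ± 0.15 (log2, edgeR adjusted p = 0.000316) in the main test and −0.85 after correction. Almost all exonic bases of the read-through gene ATP5MF-PTCD1 (94.2%) are shared with PTCD1, so its counts cannot be told apart from that gene's.

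Levels were also summed over the members of each complex. Complex I summed to 3478, 2453 and 4390 CPM in shluc, 4741, 4808 and 4884 CPM with shEZH2#1, and 6520, 4716 and 4451 CPM with shEZH2#3. Every hairpin library lay above every control, at ratios of group means of 1.40 and 1.52, and after the GC and length correction these ratios were 1.14 and 1.15. The separation from shEZH2#3 was then lost, with shluc replicate 3 at 4400 CPM and shEZH2#3 replicates 2 and 3 at 4345 and 4218 CPM. It was lost in TPM as well (9692 against 8205 and 7852 for the same libraries). Complex III gave 1.51 and 1.61, and without UQCRC1 1.01 and 1.21. Complex II gave 0.905 and 1.23, but without SDHA 0.869 and 0.862, and in TPM 0.795 and 0.746, so its direction with shEZH2#3 turned. Complex IV gave 1.21 and 1.40, and complex V 0.982 and 1.18. In TPM complex I was at 1.31 and 1.07, complex III at 1.26 and 1.07, complex IV at 1.12 and 0.986, and complex V at 0.963 and 0.935, so the directions of complexes IV and V with shEZH2#3 turned. TPM carry no TMM scaling factor, so they differ from the CPM sums in scaling as well as in the use of transcript length. All subunit genes together were at 1.20 and 1.38 in CPM and at 1.13 and 0.992 in TPM. In CPM, complex V without ATP5F1B was at 1.04 and 1.31, where its direction with shEZH2#1 turned. The 13 mitochondrially encoded subunits summed to 28710 to 31091 CPM in shluc, 14998 to 16473 CPM with shEZH2#1 and 58746 to 88388 CPM with shEZH2#3, or 0.540 and 2.37 times shluc. Of these 13, 9 fell with shEZH2#1 and 13 rose with shEZH2#3. Over all genes tested 7.89% fell with shEZH2#1 and 24.4% rose with shEZH2#3. In TPM the mitochondrially encoded sum was 0.487 and 1.68 times shluc.

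**Figure D5:**
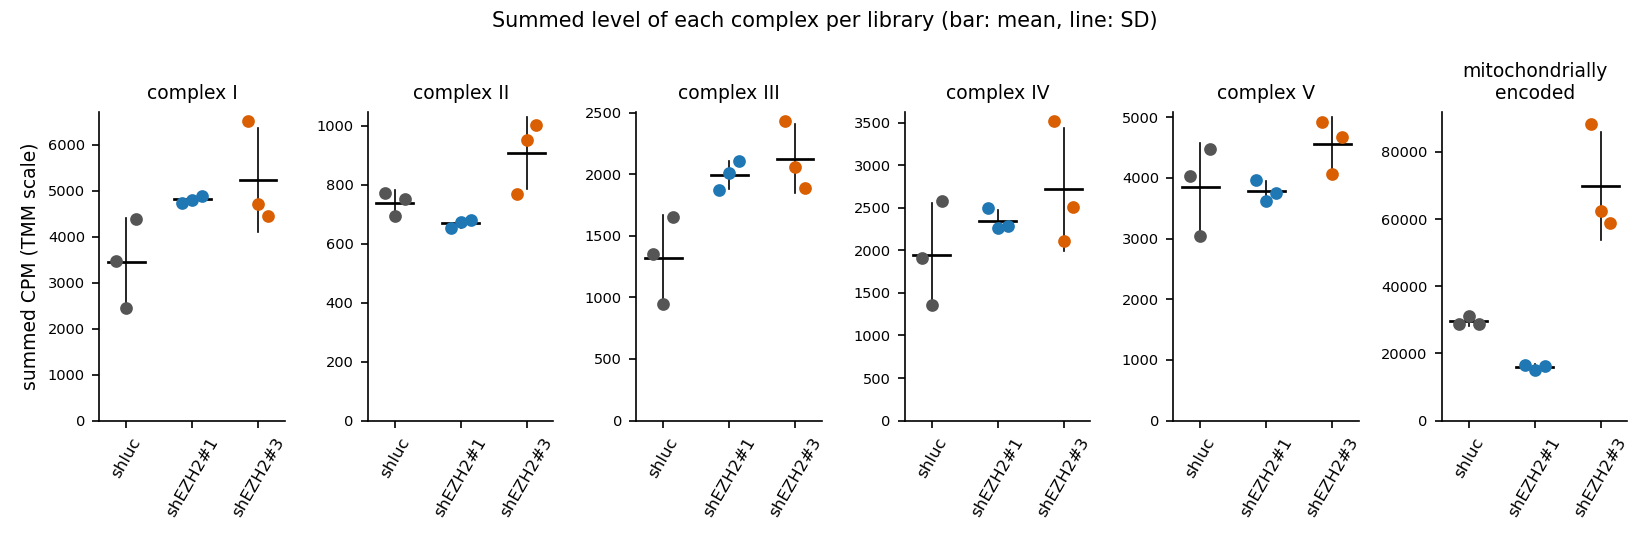
Summed CPM of the nuclear-encoded subunits of each complex and of the 13 mitochondrially encoded subunits, per library, on linear axes from 0, with bars for group means and lines for the SD. The mitochondrially encoded sum separates the hairpins (0.540 and 2.37 times shluc), while complexes I to V lie between 0.905 and 1.61.

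The genes around the chain gave both directions, against the background of 11.2% higher and 7.89% lower with shEZH2#1, and 24.4% and 19.8% with shEZH2#3. For the counts after correction the background was 8.49% and 9.57% with shEZH2#1, and 12.8% and 11.4% with shEZH2#3. Of 56 assembly factors, 7 were higher and 2 lower with shEZH2#1, and 11 higher and 9 lower with shEZH2#3 (medians 0.00 and −0.08), and after correction 4 and 0, and 2 and 5. Among them SDHAF1, needed to mature SDHB, had log2 fold changes of 0.83 and 1.42, and SCO2, a copper carrier for complex IV, 1.11 and 0.79, all called. After the correction SDHAF1 was called with shEZH2#3 (0.79) and SCO2 with shEZH2#1 (0.55), and neither with the other hairpin. Of 3 subunits that the naming rule leaves out, 1 was higher and 0 lower with shEZH2#1, and 0 higher and 1 lower with shEZH2#3. Their medians were −0.16 and −0.19, and after correction the counts were 1 and 0, and 0 and 0. The gene that rose was CYC1, the cytochrome c1 of complex III. CYC1 had 0.90 ± 0.17 (edgeR adjusted p = 0.00152) with shEZH2#1 and 0.40 with shEZH2#3. Of 17 citric acid cycle genes 1 rose and 4 fell with shEZH2#1, against 3 higher and 7 lower with shEZH2#3 (medians −0.30 and 0.00), and after correction 0 and 2, and 3 and 1. Among them was fumarase FH at −0.46 and −0.99, of which only the shEZH2#3 value was called after correction (−0.57). Of 18 regulators of mitochondrial genes, 3 were higher and 2 lower with shEZH2#1, and 4 higher and 5 lower with shEZH2#3 (medians −0.22 and 0.12), and after correction 1 and 2 with each hairpin. ESRRA, a nuclear receptor that drives respiratory genes, had 0.59 and 0.73, and HIF1A, the oxygen-regulated factor that represses respiration, −0.60 and −1.14. After the correction ESRRA was called with neither hairpin (0.16 and 0.07) and HIF1A with shEZH2#3 (−0.49).

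Promoters were read because nuclear respiratory genes are known for shared binding motifs. RefSeq promoter windows of GRCh38.p14, each 300 bases with 250 before the transcript start, were matched to 72 subunit genes, 69 of them tested. On either strand, the ETS-type motif CCGGAAG, bound by GABP, was in 28.99% of the 69 against 12.8% of 22199 protein-coding promoters. The NRF1 motif GCGCANGCG was in 30.4% against 9.64%, the YY1 motif GCCATNTT in 31.9% against 7.37%, and the SP1 motif GGGGCGGGG in 14.5% against 20.6%. These shares also count matches in the 50 bases after the start and were not split by position. Of the 22 genes with the YY1 motif, only NDUFS8, COX7B and ATP5PF held it within the 180 bases before the start. NDUFA1 held a match that ended 215 bases before the start. The YY1 share of 31.9% thus rests mostly on matches elsewhere in the window, those of UQCRC1 and NDUFS7 among them. Its background of 7.37% was not split in the same way. None of the 4 spellings contains another, and a match is a description of the letters, not of binding.

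The NRF1 motif of genes from the results above is shown with 10 bases on each side, 5′ to 3′ on the gene's own strand, with the match in capitals as GCGCANGCG or its reverse complement. UQCRC1 and NDUFS7 are shown because they rose with both hairpins, and SDHA, a subunit that differed between the hairpins, because its window holds 4 matches. A further match in UQCRC1, whose flank would pass the start, is not shown. The 4 SDHA matches have the same letters and are evenly spaced, so they are not counted as separate findings.
UQCRC1, chr3:48609674-48609702, reverse strand: tacggtactgCGCCTGCGCcgcgaccgcc
NDUFS7, chr19:1383823-1383851, forward strand: ttccggtttcCGCATGCGCtccgagccgc
SDHA, chr5:218144-218172, forward strand: ggtccgctttGCGCAGGCGcggcgccccc
SDHA, chr5:218193-218221, forward strand: gtggcatggtGCGCAGGCGcgatgtcccc
SDHA, chr5:218242-218270, forward strand: ccggcgtggtGCGCAGGCGcggtatcccc
SDHA, chr5:218291-218319, forward strand: ccggtgtggtGCGCAGGCGcagtctgcgc
The match shown ends 37 bases before the RefSeq start in UQCRC1, 65 before it in NDUFS7, and 157, 108, 59 and 10 before it in SDHA. These distances hold for the RefSeq start only. In UQCRC1 and NDUFS7 all 180 bases before it lie in exons of the GENCODE annotation, so the matches shown are in annotated exonic sequence. In SDHA 79 of the 180 bases do, and the matches printed from 218242 and 218291 lie past the GENCODE gene start at 218241.

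The 180 bases before the start are printed for a pair of membrane-arm genes that rose with both hairpins and carry different motifs, NRF1 in NDUFA11 and ETS in NDUFB7, and for NDUFA4L2, which holds none of the 4 in this stretch. The genes lie on the reverse strand, the sequences read 5′ to 3′ on it, and the capitals mark the motif.
NDUFA11, chr19:5903791-5903970: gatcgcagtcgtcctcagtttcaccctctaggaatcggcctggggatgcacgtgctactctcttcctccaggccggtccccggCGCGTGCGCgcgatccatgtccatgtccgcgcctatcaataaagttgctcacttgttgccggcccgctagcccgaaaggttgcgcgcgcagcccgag
NDUFB7, chr19:14572067-14572246: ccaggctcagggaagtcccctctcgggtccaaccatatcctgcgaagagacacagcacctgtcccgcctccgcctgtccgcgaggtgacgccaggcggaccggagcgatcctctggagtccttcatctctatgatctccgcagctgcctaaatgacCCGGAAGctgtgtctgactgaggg
NDUFA4L2, chr12:57240763-57240942: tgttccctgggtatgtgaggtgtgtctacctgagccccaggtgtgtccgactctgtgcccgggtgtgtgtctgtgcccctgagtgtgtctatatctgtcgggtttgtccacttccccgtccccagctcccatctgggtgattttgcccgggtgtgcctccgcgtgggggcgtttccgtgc
With shEZH2#3 the median log2 fold change was 0.49 in subunit genes with the ETS motif and 0.43 without it, 0.50 and 0.43 for NRF1, 0.15 and 0.55 for YY1, and 0.57 and 0.40 for SP1. With shEZH2#1 these medians were 0.25 and 0.00, 0.12 and 0.00, 0.02 and 0.12, and 0.07 and 0.05. They are given as descriptions, with no test.

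Copies and neighbours could enter the counts of some subunit genes. Pseudogenes named for them existed for 49 of the 83 tested genes, and in none did these hold over 10% of the gene's own counts, the highest share being 3.33% for UQCRFS1. The exons of 42 of the 89 genes overlapped another gene, 27 of them one on the opposite strand. Among the genes described, beside NDUFS7 and ATP5MF-PTCD1 given above, NDUFB8 shared 65.5% and COX6A1 30.6% of exonic bases with another gene on the same strand. On the opposite strand ATP5ME shared 49.9% with MYL5, NDUFB11 44.9% with RBM10 and ATP5PF 27.3% with GABPA, and smaller overlaps are not listed. The strand setting of the counting is not given in the sources used here.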

How the data were processed

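The authors deposited estimated counts per Ensembl gene for 9 libraries, as a table of the series and as single files that hold the same values. Per the labels' protocols, total RNA was taken with TRIzol, selected for poly(A) and made into stranded dUTP libraries. Per the submitters' processing notes, fastp, HISAT2 and StringTie were used on GRCh38, while the sources used here do not give the counting step, the annotation release or how reads with several matches were treated. Between 14.7 and 18.6% of nonzero values had decimals, and counts were rounded for testing. Genes were filtered with filterByExpr and fitted over all 9 libraries in edgeR 4.0.16 (R 4.3.3) with TMM scaling, and p-values were adjusted over all 13252 genes. The biological coefficient of variation was 0.178, and replicates differed beyond counting noise (chi-square per degree of freedom 15.7 to 84.0). CPM use TMM-scaled totals, and TPM use GENCODE 29 transcript lengths and no TMM factor. Lengths and GC content are those of GENCODE 29 transcripts, and the correction is a loess of span 0.3 per library. Alternatives were other scalings, DESeq2 1.42.0, limma-voom 3.58.1, no filter, a mean of at least 5 CPM, the groups compared only, a replicate block, the GC and length correction, removal of 2 abundant unnamed genes (5.97 to 22.6% of counts), a fold of at least 1.5 and leaving out each library. The scripts were tested on simulated data.

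Named subunits were those called with both hairpins, those that differed most between hairpins, the highest and lowest of each complex, a list of central subunits and isoform pairs, and from other lists at most 4 genes called with both hairpins. The subunits and lists were chosen with earlier results of these data known, and NDUFC2, NDUFB10, ATP5ME, ATP5PB and ATP5PF were named after their values were seen. The values of 1 central subunit are not reported here.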

Additional observations from a re-analysis of the deposited data

Results flagged for a closer look

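Between the hairpins, 12 subunit genes differed by edgeR's quasi-likelihood test at an adjusted p below 0.05. The log2 difference, shEZH2#1 minus shEZH2#3, was 0.68 for NDUFS1, −0.85 for NDUFA10, −0.61 for SDHA, −0.67 for NDUFA4L2 and −0.67 for ATP5MF-PTCD1, and these 5 were called without shEZH2#3 replicate 1 too. It was −1.25 for NDUFA3, −0.73 for NDUFB4, −0.74 for NDUFS5, −0.69 for NDUFV3, −0.54 for COX5A, −0.81 for ATP5MC2 and −0.89 for ATP5IF1, and these 7 were not called without that library, when their differences lay between −0.47 and −0.11. The groups of 3 libraries are too small for a test of single outlying libraries. The part of transcript length, GC content and library in these differences was not tested further.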

How the results depend on the processing

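RLE scaling, DESeq2, limma-voom and the fit on the groups compared left the count of subunit genes called within 1.5 times its main value in each comparison. For shEZH2#1 against shluc, 10 were called in the main test, 16 with no filter, 18 on library totals and 18 with the GC and length correction on 8 libraries (shEZH2#3 replicate 1 left out). For shEZH2#3 against shluc, 37 became 24 with upper quartile scaling, 17 with the GC and length correction, 11 with that correction on 8 libraries and 21 without both shluc replicate 2 and shEZH2#3 replicate 1. For the mean of both hairpins, 23 became 10 with the correction, 13 with it on 8 libraries and 14 when a fold of at least 1.5 was asked for. Between the hairpins, 12 became 22 with no filter, 22 with the correction and 7 on library totals. Library totals, 8 libraries and the removal of both libraries were tried after seeing the data. Leaving out 1 library at a time gave 6 to 21 calls for shEZH2#1, 19 to 50 for shEZH2#3, 10 to 35 for their mean and 5 to 20 between hairpins. Calls for shEZH2#1 were 21 without shluc replicate 3 and 6 without shluc replicate 1, shEZH2#1 replicate 2 or shEZH2#1 replicate 3. Calls for shEZH2#3 were 19 without its replicate 1, and 24 and 20 without shluc replicates 1 and 2. For the mean they were 35 without shluc replicate 3, 15 and 10 without shluc replicates 1 and 2, and 12 without shEZH2#1 replicate 2 or 3. Between hairpins they were 5 without shEZH2#1 replicate 3 or shEZH2#3 replicate 1, 7 without shEZH2#1 replicate 1 or 2, and 20 without shEZH2#3 replicate 3. Under the correction the called values of NDUFB7 with shEZH2#3 (now −0.18) and of NDUFB10 in the mean of both (0.49, now −0.02; chosen after its values were seen) turned, ATP5MC1 in the mean turned to a called −0.26, and genes not called in either fit changed sign as well. Summed in TPM, which carry no TMM factor, complex II was 0.795 and 0.746 times shluc and complex III 1.07 with shEZH2#3. Without its most abundant gene complex II was 0.862 with shEZH2#3 and complex III 1.01 with shEZH2#1. The cause of these changes was not tested.

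Same-numbered replicates had correlations of their deviations between −0.12 and 0.08. With deviations taken from the means of 3 libraries, these values cannot show whether the numbers pair the libraries, and the labels do not say so. With a replicate block 13, 38, 28 and 13 subunit genes were called in the 4 comparisons, and with the block and the GC and length correction 21 with shEZH2#3, 13 for the mean and 24 between hairpins, with NDUFB7 at −0.18 and ATP5MC1 at −0.26.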
